A study of Homo sapiens with 4 samples.

Results

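The mitochondrial ribosomal protein genes were taken as every row of the deposited table whose symbol begins with MRPL or MRPS, followed by a number and at most the letter A, B or C. The rule found 78 of 60666 rows, each symbol once. Of the 78, 51 encode proteins of the large subunit of the mitochondrial ribosome and 26 proteins of the small subunit. MRPS18A and MRPS30 carry small-subunit symbols but belong to the large subunit and were counted there. MRPS36 is now known as a component of the 2-oxoglutarate dehydrogenase complex. It was kept out of both subunits but is counted in all values given for the 78 members.

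The mitochondrial ribosome translates the few messenger RNAs of the mitochondrial genome, all of which encode subunits of the respiratory chain and the ATP synthase. Its RNA comes from the mitochondrial genome, whereas every protein is encoded in the nucleus, made in the cytosol and imported. Some of these proteins descend from bacterial ribosomal proteins, and others are found only in mitochondrial ribosomes. Tumor cells that depend on respiration need this ribosome to build the chain, which is the route by which carbon from lactate can be oxidized.

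To examine the response to lactate when glucose is absent, RNA of HGC27, a cell line established from a human gastric cancer, was sequenced from cells in glucose-free DMEM (noglu, n = 2) and from cells given 25 mM lactate for 24 h in that medium (lactate, n = 2). Both media held 10% FBS and antibiotics. Nothing in the labels tells if replicates came from separate cultures, and the p-values therefore speak only of the spread among these 4 samples, which could be technical. The values are TPM, a share of the library corrected for gene length, which leaves the depth unknown. In such bulk samples, fewer cells with a transcript and less of it per cell cannot be told apart.

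HGC27 carries little of the gastric or epithelial program. MUC5AC, TFF1, TFF2, GKN1, PGC and ATP4B, which mark differentiated stomach, were listed at 0 in all 4 libraries, and EPCAM, KRT18 and KRT19 stayed under 1 TPM. KRT8, a keratin, was at 2.08 and 1.87 TPM in noglu and at 6.07 and 6.0 TPM in lactate (adjusted p = 0.0328, limma). The collagen gene COL1A1 lay between 257 and 362 TPM and the matrix gene DCN between 162 and 213 TPM. Among markers of other cell types, PTPRC, CD3E, PECAM1, HBB and MYH6 were at 0.3 TPM or lower. The part of these markers in the results was not tested.

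The mitochondrial ribosomal protein genes were lower by a small amount with lactate. Every member passed the filter of a mean of at least 1 TPM, and the median log2 fold change of the 78, lactate over noglu on the log2(TPM + 1) scale, was -0.16, against 0.08 for all 15051 tested rows and 0.0097 for the 5402 of them whose mean level lay within the members' range. These 5402 rows, called rows at the members' levels below, share only the range of levels. Their median mean level was 41.4 TPM, against 75.5 TPM for the members. The log2 fold change was below 0 for 62 members and above 0 for 16. It was below 0 for 40.8% of all tested rows and 48.5% of rows at the members' levels. MRPL15, MRPL46, MRPS25 and MRPL1 fell (limma, Benjamini-Hochberg adjusted p under 0.05), none rose, and 74 did not pass the test. Across all tested rows 706 rose (4.69%) and 286 fell (1.90%), and with the libraries rescaled by median ratios 389 rose and 382 fell. The 4 that fell are 5.13% of the members, next to 3.37% of rows at the members' levels. At an unadjusted p under 0.05, 23 members were lower (29.5% of them, against 8.95% of all rows and 14.9% at the members' levels) and none was higher (19.3% of all rows and 19.4% at the members' levels).

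Both lactate libraries lay below both noglu libraries for 42 members, above them for 6, and the groups overlapped for 30. The share below, 53.8%, compares with 21.3% of all tested rows and with 29.5% of rows at the members' levels. The share above, 7.69%, compares with 37.0% of all tested rows and with 32.8% at the members' levels. The median difference between conditions, taken without sign, was 0.19 on the log2 scale, while the 2 noglu libraries differed by a median of 0.12 and the 2 lactate libraries by 0.13. Over all tested rows the same medians were 0.25 between conditions, 0.14 between the noglu libraries and 0.19 between the lactate libraries. Among the members the difference was larger than both gaps for 40, a count that was not taken over all rows. Across the 78 members, which share the same 4 libraries, the log2 level and the log2 fold change had a Pearson r of -0.02 and a Spearman rho of -0.07.

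**Figure D1:**
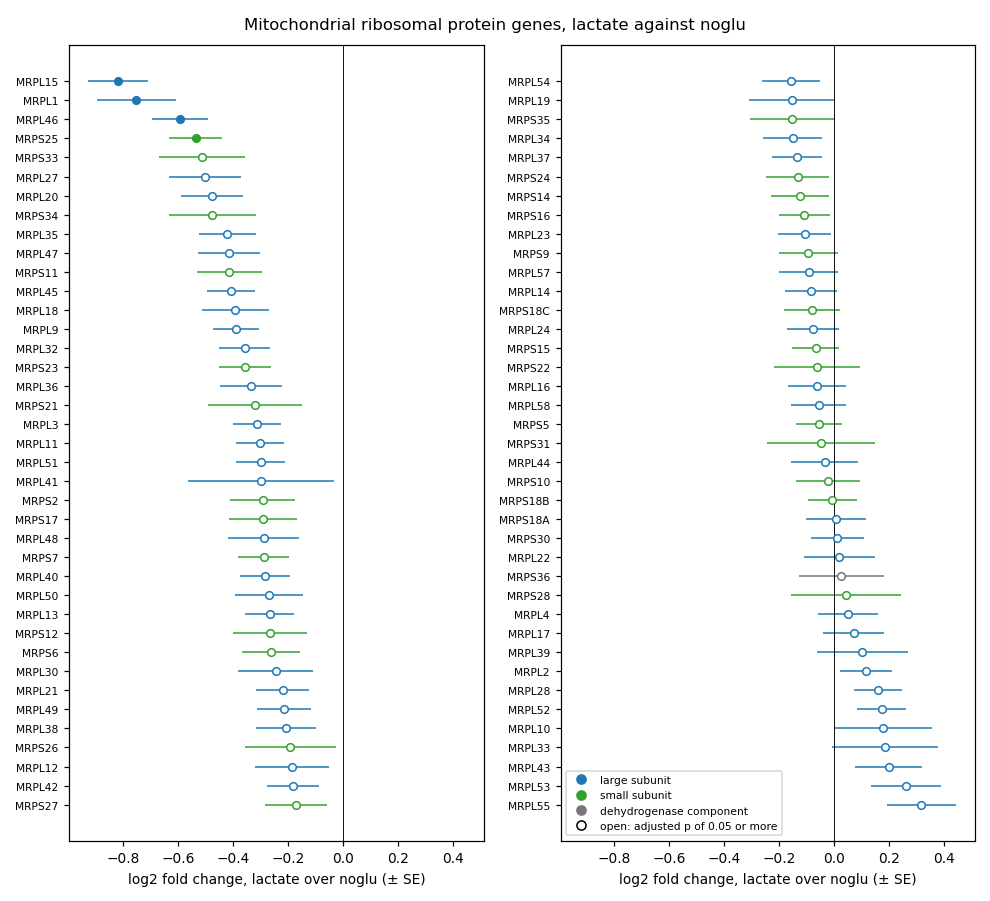
Log2 fold change (x axis, lactate over noglu on the log2(TPM + 1) scale) of each of the 78 members, ordered by change over both panels. Bars are standard errors from limma, colors give the subunit, and filled points mark the 4 members with an adjusted p under 0.05. The 62 members below 0 reach down to -0.82 for MRPL15, and the 16 above 0 reach 0.32 for MRPL55.

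Summed over all 78 members, MRPS36 included, the level was 7413 and 7604 TPM in noglu and 6667 and 6576 TPM in lactate. Both lactate libraries were lower than both noglu libraries. The means were 7509 ± 135 and 6622 ± 64.2 TPM (SD, n = 2), a difference of -11.8%. The large subunit genes summed to 5170 and 5413 TPM in noglu and to 4733 and 4657 TPM in lactate (-11.3%). The small subunit genes summed to 2202 and 2160 TPM in noglu and to 1898 and 1883 TPM in lactate (-13.3%). The summed level of both subunits was therefore lower by similar amounts, and their ratio, large over small, was 2.35 and 2.51 in noglu and 2.49 and 2.47 in lactate. No test was run on these sums. Since a TPM value is a share, the sum also depends on the other transcripts: with transcripts of the mitochondrial genome removed the difference was -12.5%, and with median-ratio scaling it was -17.6%.

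Among the large subunit genes 3 fell (5.88%, against 1.90% of all rows and 3.37% at the members' levels) and 48 did not pass the test. The log2 fold change was below 0 for 37 and above 0 for 14, with a median of -0.18, and the groups did not overlap for 27 lower genes (52.9%, against 21.3% of all rows and 29.5% at the members' levels) and 6 higher genes (11.8%, against 37.0% and 32.8%). The 30 with a bacterial counterpart had a median of -0.20 and the 21 specific to mitochondria one of -0.16.

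MRPL15 encodes a large subunit protein with a bacterial counterpart, L15, and had the largest fall of all members. MRPL15 (NCBI gene 29088, GENCODE release 29 on GRCh38, chromosome 8, 54135210 to 54147901, plus strand) was at 148 and 144 TPM in noglu and at 76.2 and 89.1 TPM in lactate. The lactate libraries stood clearly apart from the noglu libraries, which differed little from each other. The log2 fold change was -0.82 ± 0.11 (SE, adjusted p = 0.0328), or -43.4% in mean TPM.

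MRPL1 encodes the counterpart of bacterial L1, the protein of the mobile stalk beside the site where spent tRNA leaves. MRPL1 (NCBI gene 65008, chromosome 4, 77862520 to 77952790, plus strand) was at 42.7 and 49.9 TPM in noglu and at 24.5 and 29.8 TPM in lactate. The groups did not overlap, although the libraries of each group were further apart than those of MRPL46. The log2 fold change was -0.75 ± 0.14 (adjusted p = 0.0482), or -41.4% in mean TPM.

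MRPL46 encodes a large subunit protein with no bacterial counterpart. MRPL46 (NCBI gene 26589, chromosome 15, 88459476 to 88467419, minus strand) was at 45.7 and 45.1 TPM in noglu and at 28.5 and 31.2 TPM in lactate. The libraries of each group lay close together and the groups well apart. The log2 fold change was -0.59 ± 0.10 (adjusted p = 0.0420), or -34.3% in mean TPM.

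MRPS25, the small subunit gene that fell, encodes a protein found only in mitochondrial ribosomes. MRPS25 (NCBI gene 64432, chromosome 3, 15042460 to 15065335, minus strand) was at 102 and 113 TPM in noglu and at 73.7 and 74.1 TPM in lactate. The lactate libraries were nearly equal and lay below both noglu libraries. The log2 fold change was -0.53 ± 0.10 (adjusted p = 0.0454), or -31.4% in mean TPM. The adjusted p of all 4 genes was close to the threshold. Leaving out any 1 of the 4 libraries ended all 4 calls: the adjusted p was 0.282 or more without noglu replicate 1 or without noglu replicate 2, 0.135 or more without lactate replicate 1 and 0.144 or more without lactate replicate 2. The log2 fold changes then ran from -0.93 to -0.71 for MRPL15, from -0.89 to -0.61 for MRPL1, from -0.65 to -0.53 for MRPL46 and from -0.61 to -0.46 for MRPS25. Without a filter on low values the calls also ended (adjusted p = 0.112 or more).

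**Figure D2:**
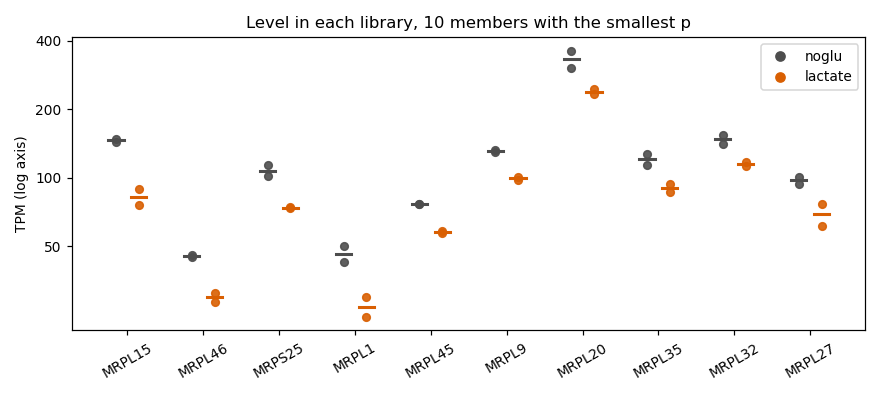
Level in TPM (log axis) in each of the 4 libraries for the 10 members with the smallest p, from MRPL15 at the left to MRPL27 at the right. Points are libraries and bars are group means. For all 10 genes both lactate libraries lie below both noglu libraries.

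The other members among the 10 smallest p were all of the large subunit and did not pass the test. MRPL45, whose protein lies at the tunnel exit and ties the ribosome to the inner membrane, was at 76.6 and 77.1 TPM in noglu and at 58.2 and 57.3 TPM in lactate (log2 fold change -0.41 ± 0.09, adjusted p = 0.0584). The MRPL45 values are uncertain, because 2 pseudogene rows of it hold a mean of 27.8% of its level. MRPL45P2 was at 16.7 and 15.8 TPM in noglu and at 15.5 and 26.8 TPM in lactate. MRPL9, the counterpart of bacterial L9, was at 129 and 132 TPM in noglu and at 98.1 and 101 TPM in lactate (-0.39 ± 0.08, adjusted p = 0.0596). MRPL20, whose bacterial counterpart L20 is needed early in assembly of the large subunit, was at 305 and 363 TPM in noglu and at 245 and 233 TPM in lactate (-0.47 ± 0.11, adjusted p = 0.0682). In each of these genes the noglu libraries were the higher ones. MRPL20 has an antisense gene, MRPL20-AS1, at 19.0 and 13.8 TPM in noglu and 13.2 and 11.9 TPM in lactate, and whether counting used strand is not given in the sources used here.

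MRPL35, a further gene with a bacterial counterpart, was at 114 and 128 TPM in noglu and at 86.5 and 94.0 TPM in lactate (log2 fold change -0.42 ± 0.10, adjusted p = 0.0739). MRPL32, whose protein is trimmed by the mitochondrial AAA protease in yeast and mouse, was at 141 and 154 TPM in noglu and at 112 and 118 TPM in lactate (-0.36 ± 0.09, adjusted p = 0.0802). MRPL27, whose bacterial counterpart L27 reaches into the peptidyl transferase center, was at 94.2 and 101 TPM in noglu and at 76.5 and 61.6 TPM in lactate (-0.50 ± 0.13, adjusted p = 0.0825). Lactate lay below noglu in every library of these 3 genes. All 6 genes passed the test when only protein-coding genes were tested, which counts 10 members as fallen in place of 4.

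The 5 largest positive changes were all in large subunit genes, and none passed the test. MRPL55, assigned to the counterpart of bacterial L31, was at 65.0 and 68.7 TPM in noglu and at 92.5 and 75.5 TPM in lactate (log2 fold change 0.32 ± 0.13, adjusted p = 0.180). MRPL53 was at 142 and 166 TPM in noglu and at 199.5 and 170.02 TPM in lactate (0.26 ± 0.13, adjusted p = 0.25). MRPL43 was at 100.5 and 94.4 TPM in noglu and at 123.2 and 102 TPM in lactate (0.20 ± 0.12, adjusted p = 0.342). In these 3 genes lactate replicate 1 was the highest library and both lactate libraries lay above noglu, by little in replicate 2. MRPL33 was at 100.08 and 119 TPM in noglu and at 104 and 148 TPM in lactate (0.19, adjusted p = 0.569). MRPL10, a protein of the stalk base that recruits translation factors, was at 67.7 and 49.1 TPM in noglu and at 70.8 and 60.4 TPM in lactate (0.18, adjusted p = 0.556). The groups of MRPL33 and MRPL10 overlapped. MRPL33 was at -0.068 without lactate replicate 2 and MRPL10 at -0.049 without noglu replicate 2.

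Members differed 18.4-fold in mean TPM, a per-length scale. The 5 highest were MRPL13, MRPL20, MRPS24, MRPL51 and MRPS15. MRPL13, the highest, was at 385 and 402 TPM in noglu and at 312 and 343 TPM in lactate (log2 fold change -0.27 ± 0.09, adjusted p = 0.131). MRPL51 was at 277 and 253 TPM in noglu and at 218 and 212 TPM in lactate (-0.30 ± 0.09, adjusted p = 0.104). Lactate lay below noglu in both of these genes. MRPS24 was at 299 and 264 TPM in noglu and at 275 and 239 TPM in lactate (-0.13, adjusted p = 0.488), and MRPS15 at 208 and 216 TPM in noglu and at 195 and 209 TPM in lactate (-0.07, adjusted p = 0.652). Their groups overlapped.

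The 3 lowest members were MRPL57, MRPS17 and MRPS31. MRPL57 was at 19.5 and 20.9 TPM in noglu and at 18.9 and 18.9 TPM in lactate (log2 fold change -0.09, adjusted p = 0.614). MRPS17 was at 21.2 and 23.6 TPM in noglu and at 17.02 and 19.3 TPM in lactate (-0.29, adjusted p = 0.201). Lactate lay below noglu in both genes. MRPS31 was at 20.8 and 25.8 TPM in noglu and at 19.0 and 26.5 TPM in lactate, with overlapping groups (-0.05, adjusted p = 0.903). Its 4 pseudogene rows hold a mean of 39.5% of its level, so the MRPS31 values are uncertain. Apart from MRPS31 and MRPL45, pseudogene rows of members were at 0.662% of the member's level or lower.

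Of 26 small subunit genes, MRPS25 fell (3.85%, against 1.90% of all rows and 3.37% at the members' levels) and 25 did not pass the test. Log2 fold changes were below 0 for 25, some of them at nearly 0, and above 0 for MRPS28. The groups did not overlap for 15 lower genes (57.7%, against 21.3% of all rows and 29.5% at the members' levels) and for no higher gene (37.0% and 32.8%). The median was -0.16, with -0.13 for the 16 genes with a bacterial counterpart and -0.18 for the 10 specific to mitochondria. MRPS33, one of the latter, was at 79.7 and 59.5 TPM in noglu and at 48.2 and 47.9 TPM in lactate (-0.51 ± 0.16, adjusted p = 0.111). The noglu libraries of MRPS33 were far apart, although both were above the lactate libraries. MRPS28, named after its values were seen, was at 29.4 and 26.5 TPM in noglu and at 23.7 and 35.1 TPM in lactate, with overlapping groups (0.04 ± 0.20, adjusted p = 0.911).

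The 3 human relatives of bacterial S18 showed no change that the test could detect. MRPS18A, in the large subunit, was at 44.5 and 45.7 TPM in noglu and at 48.6 and 42.4 TPM in lactate (log2 fold change 0.01 ± 0.11). MRPS18B was at 65.6 and 64.8 TPM in noglu and at 64.0 and 65.9 TPM in lactate (-0.01 ± 0.09). MRPS18C was at 84.5 and 78.5 TPM in noglu and at 73.3 and 81.0 TPM in lactate (-0.08 ± 0.10). The groups overlapped in each. MRPS30, the other small-subunit symbol in the large subunit, was at 57.6 and 57.8 TPM in noglu and at 55.7 and 60.7 TPM in lactate (0.01 ± 0.10).

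Members with roles beyond the ribosome's frame also showed no call. MRPL12, which forms the flexible stalk and also binds the mitochondrial RNA polymerase, was at 96.8 and 106 TPM in noglu and at 99.3 and 79.5 TPM in lactate (log2 fold change -0.19 ± 0.13, adjusted p = 0.415). MRPL58, a peptidyl-tRNA hydrolase built into the large subunit that frees stalled chains, was at 54.1 and 59.02 TPM in noglu and at 52.8 and 55.9 TPM in lactate (-0.06 ± 0.10, adjusted p = 0.754). The dehydrogenase component MRPS36 was at 41.0 and 30.9 TPM in noglu and at 36.3 and 36.2 TPM in lactate (0.03 ± 0.15, adjusted p = 0.931). The groups overlapped in all 3 genes. The near-zero positive values of MRPS18A, MRPS30 and MRPS36 turned negative with median-ratio scaling (-0.09, -0.09 and -0.07).

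Promoter windows of RefSeq (GRCh38.p14, 250 bases before to 50 after the start of the gene) were found for 70 members and are shown because a shared sequence feature stood out among them. Of the 70 windows, 20 (28.6%) held AAGATGGC on either strand, the letters searched for the zinc-finger factor YY1, against 5.60% of 10241 windows of tested genes and 3.03% of all 27305 windows. CCGGAAGT, the letters searched for ETS factors such as GABP, was in 11 (15.7%, against 9.13% and 4.44%). GCGCATGC, searched for NRF1, was in 6 (8.57%, against 5.73% and 3.27%). GGAATG, searched for the TEAD factors, was in 10 (14.3%, against 10.8% and 14.1%). The motifs do not contain each other, and a match is a description of letters and not a measured binding site.

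**Figure D3:**
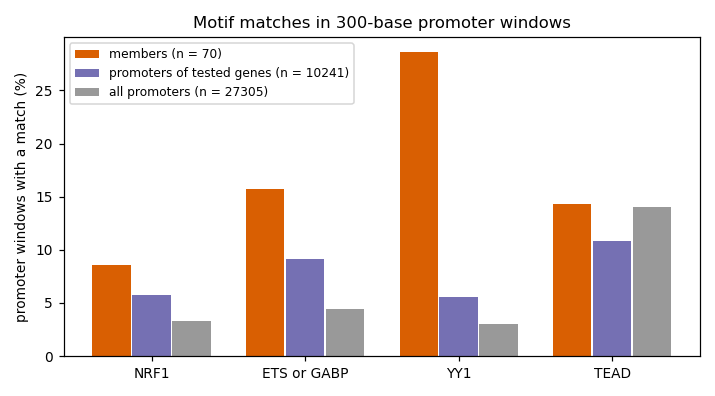
Share of promoter windows (y axis, percent) holding the letters searched for each factor on either strand (x axis), for 70 members, 10241 windows of tested genes and all 27305 windows. The YY1 letters were in 28.6% of the members' windows and 5.60% of those of tested genes, and the TEAD letters in 14.3% and 10.8%.

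The YY1 letters lay close to the start of the gene. Of 21 matches in the 20 windows, 17 were on the gene's own strand, 15 lay downstream of the first base, and 16 within 50 bases of it. In 12 matches the ATG inside AAGATGGC is an annotated start codon of the member in GENCODE release 29. From that ATG on, the letters of these matches are also coding sequence. The matches stood in 13 of 38 windows of members whose lactate libraries lay below noglu (34.2%) and in 7 of 32 windows of the other members (21.9%). The windows of 30 bases around the match are given for the 6 members with the largest falls among those with a match on the gene's strand, followed by MRPS18A and MRPS30, which were near 0, and by both matches of MRPL52, the gene with such a match whose lactate libraries lay above noglu. Capitals mark the match, each sequence reads 5′ to 3′ on the gene's strand, and the order is that of the log2 fold changes from -0.59 to 0.17.
MRPL46, chr15:88467362-88467391, minus: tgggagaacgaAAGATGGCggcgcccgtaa
MRPL20, chr1:1407260-1407289, minus: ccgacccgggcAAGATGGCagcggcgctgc
MRPL45, chr17:38297170-38297199, plus: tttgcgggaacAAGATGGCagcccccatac
MRPL51, chr12:6493223-6493252, minus: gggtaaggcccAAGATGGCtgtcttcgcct
MRPS7, chr17:75261887-75261916, plus: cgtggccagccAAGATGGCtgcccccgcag
MRPL50, chr9:101398577-101398606, minus: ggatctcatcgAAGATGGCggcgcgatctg
MRPS18A, chr6:43687764-43687793, minus: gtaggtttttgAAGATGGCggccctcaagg
MRPS30, chr5:44808949-44808978, plus: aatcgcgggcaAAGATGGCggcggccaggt
MRPL52, chr14:22829778-22829807, plus: tacgatgacccAAGATGGCggagccgtgat
MRPL52, chr14:22829812-22829841, plus: aacccagattcAAGATGGCgacttcctgct
The windows are alike in the match and differ around it, and genes with a match were found among lower, nearly unaltered and higher values. MRPS7, MRPL50 and MRPL52 were taken for this display by their match and had log2 fold changes of -0.29, -0.27 and 0.17 (adjusted p = 0.125, 0.227 and 0.268).

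Of the 3 fallen genes with a window shown here, MRPL46 held the YY1 letters, and MRPL1 and MRPS25 held none of the 4 motifs. The whole windows of MRPL46, MRPL1 and MRPS25 are printed to show the sequence at the genes that passed the test, with the YY1 letters of MRPL46 in capitals. The match in MRPL46 begins at base 259 of the window, 9 bases into the gene.
MRPL46, chr15:88467339-88467638, minus: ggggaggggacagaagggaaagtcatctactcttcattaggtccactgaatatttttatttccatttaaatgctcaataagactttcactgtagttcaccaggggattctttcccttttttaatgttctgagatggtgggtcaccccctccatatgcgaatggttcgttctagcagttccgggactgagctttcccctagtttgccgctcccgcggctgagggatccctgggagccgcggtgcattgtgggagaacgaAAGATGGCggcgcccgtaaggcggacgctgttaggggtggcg
MRPL1, chr4:77862580-77862879, plus: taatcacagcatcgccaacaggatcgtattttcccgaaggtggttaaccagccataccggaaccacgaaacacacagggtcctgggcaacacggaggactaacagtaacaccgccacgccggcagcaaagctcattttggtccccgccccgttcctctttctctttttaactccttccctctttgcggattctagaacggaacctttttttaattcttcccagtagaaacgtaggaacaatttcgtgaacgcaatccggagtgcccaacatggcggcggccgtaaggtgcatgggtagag
MRPS25, chr3:15065266-15065565, minus: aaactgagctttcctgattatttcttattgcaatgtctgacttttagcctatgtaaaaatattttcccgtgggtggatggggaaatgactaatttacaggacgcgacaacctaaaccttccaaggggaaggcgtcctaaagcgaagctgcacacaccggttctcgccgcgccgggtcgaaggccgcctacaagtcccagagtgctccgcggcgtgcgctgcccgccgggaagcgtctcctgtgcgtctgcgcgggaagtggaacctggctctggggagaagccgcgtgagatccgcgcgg
Genes that fell therefore had windows both with and without the searched letters.

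Several members start beside a gene on the other strand. Starts within 500 bases of each other, pointing apart, were found for 18 members, and 14 of the neighbours were tested. Both genes had a log2 fold change below 0 in 8 of these 14 listings, the member was below and the neighbour above 0 in 5, and the member was above 0 in 1. MRPL46 and MRPS11, a small subunit gene chosen for description after its values were seen, form such a pair with 320 bases between their RefSeq starts, and they account for 2 of the 8. MRPS11 was at 64.7 and 65.2 TPM in noglu and at 53.1 and 44.4 TPM in lactate (-0.41 ± 0.12, adjusted p = 0.0984), so both genes of the pair were lower in both lactate libraries. In the pair of MRPL27 with EME1, which encodes a subunit of a DNA endonuclease and was likewise chosen after its values were seen, the values went apart. EME1 was at 19.9 and 19.6 TPM in noglu and at 29.97 and 25.8 TPM in lactate (0.47, adjusted p = 0.0767).

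Ribosomal proteins without an MRP symbol gave no call. Of DAP3, PTCD3, CHCHD1, AURKAIP1 and GADD45GIP1, none passed the test. With an unadjusted p under 0.05, 1 was lower (20%, against 8.95% of all rows) and none higher (against 19.3%). The log2 fold change was below 0 for 3 and above 0 for 2, with a median of -0.13. AURKAIP1 was at 111 and 119 TPM in noglu and at 99.98 and 93.1 TPM in lactate (-0.25 ± 0.09, adjusted p = 0.161). GADD45GIP1 was at 98.0 and 89.0 TPM in noglu and at 82.2 and 73.3 TPM in lactate (-0.26 ± 0.11, adjusted p = 0.187). Both genes were lower in both lactate libraries, as was CHCHD1 (-0.13 ± 0.09, adjusted p = 0.400). DAP3 was higher in both lactate libraries by little (0.06 ± 0.08, adjusted p = 0.676). The groups of PTCD3 overlapped (0.10 ± 0.14, adjusted p = 0.687).

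The factors that work on the ribosome gave no call either. Of 14 initiation, elongation, release and insertion factors none passed the test, 11 were below 0, and the median was -0.16. At an unadjusted p under 0.05, 1 was lower (7.14%, against 8.95% of all rows) and none higher (against 19.3%). MRRF, the ribosome recycling factor, was at 56.7 and 56.2 TPM in noglu and at 46.0 and 40.0 TPM in lactate (-0.39 ± 0.11, adjusted p = 0.0952). OXA1L, which inserts newly made proteins into the inner membrane, was at 108 and 114 TPM in noglu and at 130.2 and 128 TPM in lactate (0.22 ± 0.09, adjusted p = 0.179). The groups did not overlap in either gene, and they lay in opposite directions.

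Genes of ribosome assembly and ribosomal RNA modification held 4 calls among 27. C1QBP, MRM2 and MTERF4 fell (11.1%, against 1.90% of all rows) and NOA1 rose (3.70%, against 4.69%). The other 23 did not pass the test, and the median log2 fold change was -0.19. C1QBP, a matrix protein needed for mitochondrial translation in mouse, was at 380.3 and 386 TPM in noglu and at 249 and 238 TPM in lactate (-0.65 ± 0.08, adjusted p = 0.0308). MRM2, which methylates the large ribosomal RNA, was at 27.6 and 28.5 TPM in noglu and at 18.6 and 17.7 TPM in lactate (-0.60 ± 0.10, adjusted p = 0.0419). MTERF4, which brings a methyltransferase to the ribosome, was at 46.3 and 42.0 TPM in noglu and at 27.4 and 29.7 TPM in lactate (-0.61 ± 0.11, adjusted p = 0.0447). All 3 genes were lower in both lactate libraries by more than the gap within either group. NOA1, a GTPase of small subunit assembly, moved the other way, from 26.0 and 24.5 TPM in noglu to 37.7 TPM in both lactate libraries (0.56 ± 0.10, adjusted p = 0.0435).

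The RNA of the ribosome moved unevenly. MT-RNR2, the 16S RNA of the large subunit, was at 6103 and 6255 TPM in noglu and at 10944 and 11860.2 TPM in lactate, and it rose (log2 fold change 0.88 ± 0.08, adjusted p = 0.0244). MT-RNR1, the 12S RNA of the small subunit, was at 2270.4 and 2344 TPM in noglu and at 2050 and 2165 TPM in lactate (-0.13 ± 0.08, adjusted p = 0.317). The 2 RNAs come from the same strand of the mitochondrial genome, and MT-RNR2 has near-identical copies in the nuclear genome that could share its reads. Whether and how ribosomal RNA was depleted from the libraries is not stated in what was used here, and its part in these levels was not tested. Together, the transcripts of the mitochondrial genome made up between 12.4% and 13.6% of each library. MT-TV and MT-TF were listed at 0.

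Genes that replicate or transcribe mitochondrial DNA or process its RNA included 2 calls among 18, both lower (11.1%, against 1.90% of all rows). TFAM, which packages mitochondrial DNA and starts its transcription, was at 32.6 and 33.9 TPM in noglu and at 18.2 and 21.1 TPM in lactate (-0.73 ± 0.12, adjusted p = 0.0391). TWNK, the replicative helicase, was at 34.8 and 32.5 TPM in noglu and at 20.8 and 19.7 TPM in lactate (-0.70 ± 0.11, adjusted p = 0.0363). Both genes were lower in both lactate libraries. The median of the 18 was -0.21, with 15 below 0.

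Of 10 nuclear regulators of mitochondrial genes, 8 were tested. Of these, PPRC1 fell (12.5%, against 1.90% of all rows) and 7 did not pass the test, with 5 below 0 and 3 above. PPRC1, a coactivator related to PGC-1, was at 94.4 and 92.9 TPM in noglu and at 68.5 and 67.0 TPM in lactate (-0.46 ± 0.09, adjusted p = 0.0472). YY1, named for the motif in the members' windows and after its values were seen, was at 55.2 and 58.1 TPM in noglu and at 38.2 and 43.0 TPM in lactate (-0.47 ± 0.11, adjusted p = 0.0632). ESRRA, a nuclear receptor that works with PGC-1 coactivators, also named after its values were seen, was at 44.6 and 48.3 TPM in noglu and at 64.6 and 55.4 TPM in lactate (0.36 ± 0.12, adjusted p = 0.125). The groups did not overlap in these 3 genes, and ESRRA lay in the opposite direction. Genes for the NRF1 and GABP factors, whose letters were also searched, did not pass the test. They too are named after their values were seen. NRF1 (0.14, adjusted p = 0.566) and GABPA (-0.15, adjusted p = 0.591) had overlapping groups. GABPB1 (0.16, adjusted p = 0.386) was higher in both lactate libraries. Over the 8 tested regulators, lactate lay below noglu without overlap in 4 (50%, against 21.3% of all rows). It lay above in 2 (25%, against 37.0%). PPARGC1A, which encodes PGC-1α itself, and PERM1 stayed under 1 TPM in every library. The part of these regulators in the members' values was not tested.

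The members were set beside 2 other protein assemblies. The 83 tested cytosolic ribosomal protein genes had a median log2 fold change of 0.05, with none risen and 1 fallen, and 9.64% of them had both lactate libraries below both noglu libraries. The 75 tested nuclear subunits of the respiratory chain had a median of -0.11, with 1 risen and 2 fallen, and 41.3% lay below in the same sense, against 53.8% of the mitochondrial ribosomal protein genes. Both lactate libraries lay above both noglu libraries in 27.7% of the cytosolic genes, 16% of the respiratory chain subunits and 7.69% of the members. Over all tested rows, 4.69% rose and 1.90% fell, and 21.3% lay below and 37.0% above. The lists also differed in level. The median mean level was 2637 TPM for the cytosolic genes, 187 TPM for the respiratory chain subunits and 75.5 TPM for the members. These are counts, shares and medians over the same 4 libraries, and no test was run between the lists.

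**Figure D4:**
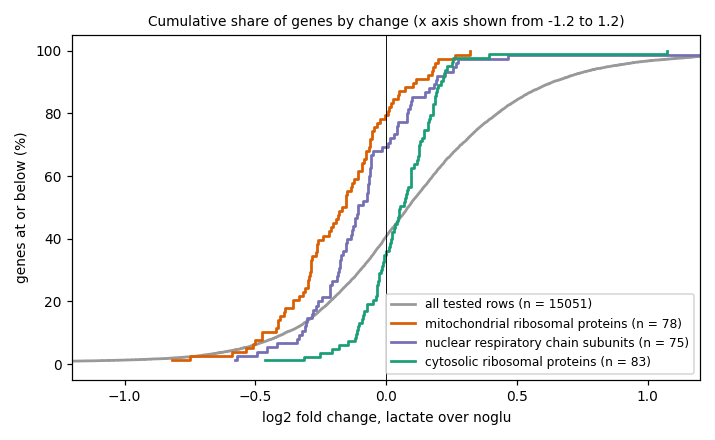
Cumulative share of genes (y axis, percent) at or below a log2 fold change (x axis, lactate over noglu) for 78 mitochondrial ribosomal protein genes, 75 nuclear respiratory chain subunits, 83 cytosolic ribosomal protein genes and all 15051 tested rows. The medians are -0.16, -0.11, 0.05 and 0.08, and the curve of the mitochondrial ribosomal protein genes lies to the left of that of the cytosolic ones at the medians.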

How the data were processed

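RNA-seq of 4 HGC27 libraries (2 noglu, 2 lactate) was available as TPM values that the authors deposited with 2 decimals for 60666 rows. The submitters' processing notes name RSEM 1.3.3 and hg38, while aligner, annotation and strand setting are not given in the sources used. TPM keeps no depth, so no counting error could be given. The deposited columns summed to between 995439 and 996089.

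The 15051 rows whose mean reached 1 TPM were tested as log2(TPM + 1) with limma 3.58.1 in R 4.3.3, with a variance trend, the group as the only term, and two-sided p-values adjusted over all tested rows after Benjamini and Hochberg. A call means an adjusted p under 0.05. Fold changes on this scale understate the change of low genes. The fit was tested on simulated data.

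The members and lists were chosen with earlier results of these data known. Named members are the 10 with the smallest p, the 5 largest rises and 5 largest falls, the 5 highest and 3 lowest by mean TPM, and MRPS18A, MRPS18B, MRPS18C, MRPS30, MRPS36, MRPL12 and MRPL58. From the other lists, called genes are named and otherwise up to 2 with the smallest p. A marker among these lists is not reported here. Coordinates are from GENCODE release 29, where all 78 members were placed. RefSeq held 77 of the symbols, and 76 with the deposited gene number.

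The alternatives tried were a replicate block, each library left out, a pseudocount of 0.1, no filter or a mean of 5 TPM, median-ratio scaling, protein-coding genes only and no variance trend.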

Additional observations from a re-analysis of the deposited data

How the results depend on the processing

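With 2 samples a group, the counts of calls depended strongly on the setting. The 4 members that fell were 0 with any library left out, 0 without a filter on low values and 0 without the variance trend, but 7 at a mean of 5 TPM, 7 with median-ratio scaling and 10 among protein-coding genes only. At an unadjusted p under 0.05, between 2377 and 3794 of all rows passed with a library left out and 5072 without a filter. With a library left out the fit has 1 residual degree of freedom and assumes that the lone sample varies as those of the other group do. The 4 genes were among the calls under a pseudocount of 0.1, a mean of 5 TPM, median-ratio scaling and protein-coding genes only. With the replicate block 5 members fell, these 4 and MRPL35, and over all rows 822 rose and 385 fell. Same-numbered samples deviated together with a correlation of only 0.04 over 2 pairs, so the number is not known to pair them. Over all rows, 706 rises became 0 to 6 with a library left out, 0 without a filter, 389 with median-ratio scaling, 1496 among protein-coding genes only and 2 without the variance trend. The 286 falls became 0 to 2, 0 without a filter, 442 at a mean of 5 TPM, 563 among protein-coding genes only and 2 without the variance trend. The members' median log2 fold change stayed below 0 in every setting, from -0.20 to -0.13 with a library left out and -0.26 with median-ratio scaling. That of the large subunit ran from -0.19 to -0.13 and was -0.28 with median-ratio scaling, and that of the small subunit from -0.23 to -0.13 and -0.26. The summed level differed by -17.6% with median-ratio scaling. Among named members, 14 of the values under alternatives reversed, none of them a call. With a library left out, the log2 fold change ran from -0.049 to 0.41 for MRPL10, from -0.068 to 0.44 for MRPL33, from -0.12 to 0.0061 for MRPL58, from -0.088 to 0.10 for MRPS18A, from -0.027 to 0.014 for MRPS18B, from -0.049 to 0.072 for MRPS30, from -0.28 to 0.18 for MRPS31 and from -0.17 to 0.22 for MRPS36. With median-ratio scaling MRPS18A, MRPS30 and MRPS36 were at -0.089, -0.086 and -0.070. The causes of these differences were not tested, other than that leaving out a library removes samples.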
